A study of Homo sapiens with 28 samples.

Results

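Transcripts of 34 genes of the lysosome were followed in LNCaP cells, an established human line from metastatic prostate cancer. The genes were picked by name for what their products do, with earlier results of these data known. All 34 were found among the 25369 genes counted. They comprised 7 membrane and lipid-transfer proteins, 9 proteases, 6 glycosidases and sulfatases, 3 lipid and thioester hydrolases, 6 subunits of the proton pump (V-ATPase) and 3 genes of mannose 6-phosphate sorting. There were 28 RNA-seq libraries in 7 groups of 4, which the series describes as independent experiments. One group had control siRNA, tunicamycin and the PERK inhibitor GSK2606414 at 100 nM (TM PERKi siCtrl). Tunicamycin was also given to cells with either of a pair of siRNAs against PERK (TM siPERK-1 and TM siPERK-3) or against ATF4 (TM siATF4-2 and TM siATF4-3). The controls carried the control siRNA and received tunicamycin alone (TM siCtrl) or the solvent (DMSO siCtrl). Tunicamycin was used at 2.5 µg/mL for 18 h, and the transfections preceded it by 2 days. All groups came from 1 cell line, and effects of the PERK and ATF4 siRNAs or of the inhibitor without tunicamycin were not analysed here.

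Lysosomes break down protein, glycan and lipid with acid hydrolases that work in a lumen acidified by the V-ATPase. Most hydrolases are N-glycoproteins made in the endoplasmic reticulum (ER), tagged with mannose 6-phosphate in the Golgi and carried onwards by mannose 6-phosphate receptors. Tunicamycin blocks the first step of N-glycan assembly and causes ER stress. PERK, the product of EIF2AK3, is a kinase of ER stress that phosphorylates eIF2α, which favours synthesis of the transcription factor ATF4. Many lysosomal genes carry a promoter element named CLEAR, which is bound by the MiT/TFE factors TFEB, TFE3 and MITF.

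Library totals ran from 10794637 to 17253801 counts, and levels are given as CPM (counts scaled to a common library size with TMM factors) with SD (n = 4). EIF2AK3, the siRNA target in the PERK groups, had 24.6 ± 3.996 CPM in TM siPERK-1 and 21.5 ± 2.14 CPM in TM siPERK-3, against 89.2 ± 6.51 CPM in TM siCtrl. In DMSO siCtrl EIF2AK3 had 29.2 to 30.9 CPM, a range that TM siPERK-1 replicate 2 reached (30.5 CPM). ATF4 had 176.6 to 357.8 CPM in TM siATF4-2 and 98.5 to 140.4 CPM in TM siATF4-3, against 1479 to 1562 CPM in TM siCtrl. The highest of these TM siATF4-2 values belonged to replicate 4, and the other 3 libraries of that group had at most 221.0 CPM. Replicate 4 of TM siATF4-2, TM siPERK-1 and TM siPERK-3 also stood apart from the rest of its group on the first principal component. On that component replicate 4 of TM PERKi siCtrl was the lowest of its group (42.6, the others 46.9 to 49.4). In TM siATF4-3, replicate 4 had the highest ATF4 level and stood apart on the second component (19.0, the others 28.9 to 29.6). Without the 7 libraries numbered 4, a setting chosen after the data were seen, the number of lysosomal genes called was 28 against 28 with them for tunicamycin and 22 against 23 for the inhibitor. It was 17 against 15 for siPERK-1, 13 against 11 for siPERK-3, 27 against 27 for siATF4-2 and 25 against 25 for siATF4-3. All 8 luminal prostate markers were detected in every group. Their summed level was 2650 to 2955 CPM in TM PERKi siCtrl, 3132 to 3594 CPM over the PERK siRNA groups and 3839 to 4332 CPM over the ATF4 siRNA groups, against 3284 to 3584 CPM in TM siCtrl and 5752 to 6728 CPM in DMSO siCtrl. The sum hides opposite changes. With tunicamycin 3 of the 8 were called higher and 5 lower (log2 changes -2.61 to 1.09), against 34.3% and 34.7% of all genes tested. Leukocyte markers (4 genes) summed to at most 1.78 CPM in any library and basal markers (3 genes) to at most 1.49 CPM. TP63, a basal marker, had 0 counts in all 28 libraries. The fibroblast sum (4 genes) was 30.8 to 40.6 CPM in TM PERKi siCtrl, 29.4 to 38.1 CPM over the PERK siRNA groups and 14.3 to 23.1 CPM over the ATF4 siRNA groups. It was 32.6 to 39.4 CPM in TM siCtrl and 17.7 to 21.6 CPM in DMSO siCtrl, nearly all of it COL1A1, and COL1A2 had 0 counts in every library. The part of these markers in the results was not tested. In bulk RNA, fewer cells of a type and less RNA per cell cannot be told apart.

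Promoter sequence (RefSeq, GRCh38.p14, 250 bases before to 50 bases after a start) was at hand for 24 of the 34 genes, in 35 windows. The CLEAR core TCACGTGA, which reads the same on both strands, was present for 6 of the 24 genes (25%), against 1.18% of all 27305 genes with a window. These were LAMP1, MCOLN1, CTSA, GAA, ATP6V0D1 and IGF2R, and LAMP1, MCOLN1 and GAA held 2 copies and IGF2R 3 copies. The shorter E-box CACGTG, which lies within the CLEAR core, was found for 11 of the 24 genes (45.8%), against 8.77% of all genes. The C/EBP-ATF element TGATGNAA, searched on both strands, was found for 1 of the 24 genes (4.17%), against 4.46% of all genes. That gene was M6PR. The unfolded protein response element TGACGTGG was found for 0 of the 24 genes, against 0.927% of all genes. The ER stress element (CCAAT, a gap of 9 bases, CCACG) was also found for 0 of the 24 genes, against 0.0916% of all genes. Both were searched on both strands. The stretches below, 1 for each gene with a CLEAR core, are shown because the element is the one bound by TFEB, TFE3 and MITF; capitals mark the core and all bases lie before the start.
LAMP1: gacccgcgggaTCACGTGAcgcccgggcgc
MCOLN1: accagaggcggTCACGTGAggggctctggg
CTSA: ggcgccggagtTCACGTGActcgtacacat
GAA: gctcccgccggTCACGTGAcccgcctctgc
ATP6V0D1: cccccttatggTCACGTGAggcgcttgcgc
IGF2R: ccgggcggctgTCACGTGAcgcggttccgg
The LAMP1 stretch is chr13:113297199-113297228 and the MCOLN1 stretch chr19:7522571-7522600, both on the plus strand. CTSA lies at chr20:45891298-45891327, GAA at chr17:80101538-80101567 and IGF2R at chr6:159969042-159969071, also on the plus strand. The ATP6V0D1 stretch is chr16:67481199-67481228 on the minus strand. In 22 of the 35 windows, bases 1 to 40 after the start were found in an annotated (GENCODE) transcript of the gene. The windows of LAMP1, MCOLN1 and IGF2R were not among these, so their distances to a start are less sure. A match describes the letters and is no evidence of binding.

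Per kilobase of exon model, the 34 transcripts covered a wide range. CTSD, the aspartic protease cathepsin D, had the highest mean level per length in both controls, at 156.7 CPM per kb in TM siCtrl and 85.3 CPM per kb in DMSO siCtrl. CTSH, an aminopeptidase of the cathepsin family, had 72.7 CPM per kb in TM siCtrl and 83.1 CPM per kb in DMSO siCtrl. SCARB2, a sorting receptor and membrane protein of the lysosome, had 81.9 CPM per kb in TM siCtrl and 81.7 CPM per kb in DMSO siCtrl. CTSC, a dipeptidyl peptidase, was the lowest, at 1.30 CPM per kb in TM siCtrl and 1.88 CPM per kb in DMSO siCtrl. Summed over the 34 genes, the level was 3492 ± 32.6 CPM in TM PERKi siCtrl. It was 4044 ± 101 CPM in TM siPERK-1, 4107 ± 105 CPM in TM siPERK-3, 3863 ± 35.6 CPM in TM siATF4-2 and 3990 ± 42.3 CPM in TM siATF4-3. The controls had 4245 ± 19.0 CPM in TM siCtrl and 3632 ± 78.1 CPM in DMSO siCtrl.

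**Figure D1:**
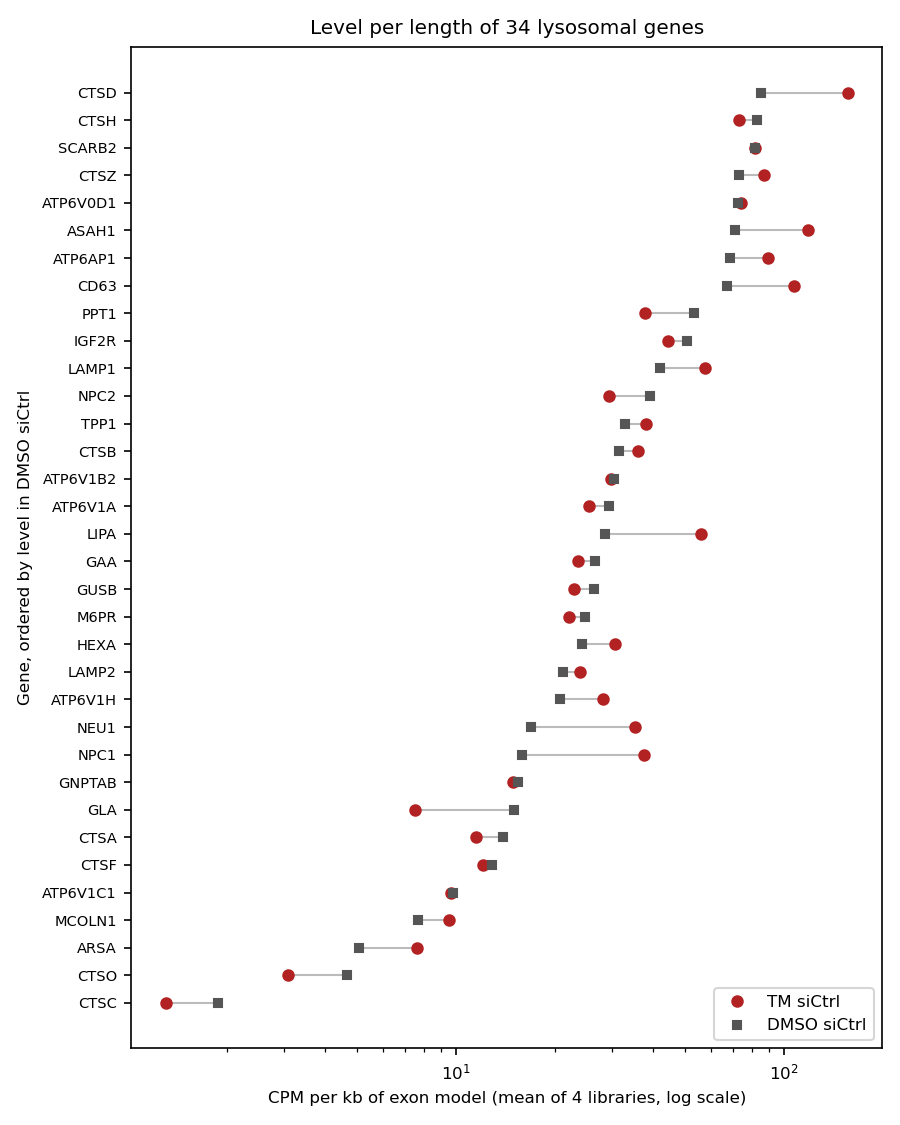
Mean level of each of the 34 lysosomal genes in CPM per kb of exon model (log axis), with TM siCtrl as red circles and DMSO siCtrl as grey squares, ordered by the DMSO siCtrl level. CTSD was the highest in both groups, at 156.7 CPM per kb in TM siCtrl and 85.3 CPM per kb in DMSO siCtrl, and CTSC the lowest, at 1.30 and 1.88 CPM per kb.

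Tunicamycin moved lysosomal transcripts in both directions, and the share that fell was near that over all genes tested. Of the 34 genes, 16 rose and 12 fell in TM siCtrl relative to DMSO siCtrl (edgeR, adjusted p under 0.05), against 34.3% of all 14314 genes tested that rose and 34.7% that fell. The median log2 change was 0.02 over the 34 genes and 0.01 over all genes tested. The strongest rises were NPC1 (log2 change 1.23 ± 0.12 SE), NEU1 (1.06 ± 0.06), LIPA (0.97 ± 0.08), CTSD (0.88 ± 0.07) and ASAH1 (0.73 ± 0.05). The strongest falls were GLA (-0.99 ± 0.08), CTSO (-0.60 ± 0.13), CTSC (-0.53 ± 0.08) and PPT1 (-0.50 ± 0.05).

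Among the membrane and lipid-transfer proteins, 5 of 7 rose with tunicamycin and 1 fell. NPC1, the membrane protein that exports cholesterol from the lysosome, had 198.1, 183.8, 168.2 and 169.3 CPM in TM siCtrl, against 86.6, 78.5, 76.8 and 65.2 CPM in DMSO siCtrl. The groups did not overlap and the adjusted p was 1.69e-09. NPC2, the soluble lumenal protein that hands cholesterol to NPC1, fell to 26.3 ± 2.12 CPM in TM siCtrl, against 34.9 ± 2.41 CPM in DMSO siCtrl. CD63, a tetraspanin of late endosomes and lysosomes, rose by 0.68 ± 0.05 on the log2 scale, and LAMP1, an abundant glycoprotein of the lysosomal membrane, rose by 0.46 ± 0.04. The related LAMP2 (0.17 ± 0.05) and the cation channel MCOLN1 (0.31 ± 0.08) rose less. SCARB2 had 390.2 ± 21.9 CPM in TM siCtrl and 389.3 ± 23.7 CPM in DMSO siCtrl.

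Of the 9 proteases, 4 rose with tunicamycin and 4 fell. CTSD had 346.4, 292.6, 349.2 and 342.6 CPM in TM siCtrl, against 174.8, 184.9, 169.4 and 195.7 CPM in DMSO siCtrl. All TM siCtrl values were above all DMSO siCtrl values (adjusted p = 1.23e-12). CTSZ, a carboxypeptidase, rose by 0.25 ± 0.04 on the log2 scale, TPP1, a tripeptidyl peptidase, by 0.21 ± 0.06 and CTSB, a cysteine protease, by 0.19 ± 0.05. CTSO, another cysteine cathepsin, had 7.97, 7.61, 11.04 and 9.56 CPM in TM siCtrl, against 15.3, 11.6, 13.96 and 13.7 CPM in DMSO siCtrl. The 2 groups of CTSO values were close but did not overlap (adjusted p = 5.18e-05). CTSA, the carboxypeptidase that also protects neuraminidase and beta-galactosidase, had 28.1, 25.6, 27.5 and 24.0 CPM in TM siCtrl, against 32.5, 32.7, 31.2 and 31.1 CPM in DMSO siCtrl. Its fall was small at -0.28 ± 0.07. CTSC fell to 9.94 ± 0.552 CPM in TM siCtrl, against 14.3 ± 0.694 CPM in DMSO siCtrl.

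The 6 glycosidases and sulfatases divided into 3 that rose and 3 that fell. NEU1, the lysosomal sialidase, had 74.7, 73.8, 67.7 and 75.8 CPM in TM siCtrl, against 36.8, 34.6, 34.5 and 34.5 CPM in DMSO siCtrl. Its fold change of 2.08 came with no overlap and an adjusted p of 9.79e-20. ARSA, arylsulfatase A, had 38.4, 30.2, 32.1 and 30.8 CPM in TM siCtrl, against 21.7, 22.0, 21.2 and 22.3 CPM in DMSO siCtrl. All ARSA values were higher with tunicamycin, and replicate 1 was the highest. HEXA, the alpha subunit of beta-hexosaminidase, rose by 0.34 ± 0.05 on the log2 scale. GLA, alpha-galactosidase A, fell to 10.7 ± 1.37 CPM in TM siCtrl, against 21.3 ± 0.786 CPM in DMSO siCtrl. GUSB, beta-glucuronidase, fell by 0.20 ± 0.05 on the log2 scale. GAA, the glycogen-degrading alpha-glucosidase, had a log2 change of -0.18 ± 0.08 at an adjusted p of 0.0484.

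Of the 3 lipid and thioester hydrolases, ASAH1 and LIPA rose and PPT1 fell. ASAH1, acid ceramidase, had 346.4, 359.9, 346.8 and 347.7 CPM in TM siCtrl, against 213.5, 214.6, 210.8 and 204.1 CPM in DMSO siCtrl. The 4 libraries of each group were close together and the groups were far apart (adjusted p = 1.05e-16). LIPA, the lysosomal acid lipase that hydrolyses cholesteryl esters, averaged 155.9 ± 12.0 CPM in TM siCtrl and 79.4 ± 6.25 CPM in DMSO siCtrl. PPT1, which removes palmitate from proteins, averaged 94.2 ± 3.36 CPM in TM siCtrl and 133.5 ± 8.71 CPM in DMSO siCtrl.

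Of the 6 V-ATPase subunits, ATP6V1H and ATP6AP1 rose, ATP6V1A fell and 3 were not called. ATP6V1H, a subunit of the cytosolic V1 sector, had 63.8, 64.7, 69.7 and 65.3 CPM in TM siCtrl, against 50.6, 49.0, 47.6 and 48.5 CPM in DMSO siCtrl. The ATP6V1H groups were well separated (0.43 ± 0.05 on the log2 scale, adjusted p = 5.24e-09). ATP6AP1, an accessory subunit, rose by 0.38 ± 0.05. ATP6V1A, the catalytic subunit, fell by 0.21 ± 0.04. In the sorting group, M6PR, the small cation-dependent receptor, fell by 0.16 ± 0.05, with no overlap between the groups. IGF2R, the large cation-independent receptor, fell by 0.19 ± 0.05, with overlapping libraries. GNPTAB, which encodes the alpha and beta subunits of the phosphotransferase that builds the tag, was not called (-0.05 ± 0.05). CTSH (-0.19 ± 0.06) lost its call without DMSO siCtrl replicate 4 (adjusted p = 0.079). GAA lost its call when any 1 of 6 libraries was left out, namely TM siCtrl replicates 1, 2 and 3 and DMSO siCtrl replicates 2, 3 and 4 (adjusted p 0.062 to 0.159). With all libraries kept, the GAA call was also lost under RLE or upper-quartile scaling, in DESeq2 and without the filter on low counts (0.0515 to 0.0752).

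**Figure D2:**
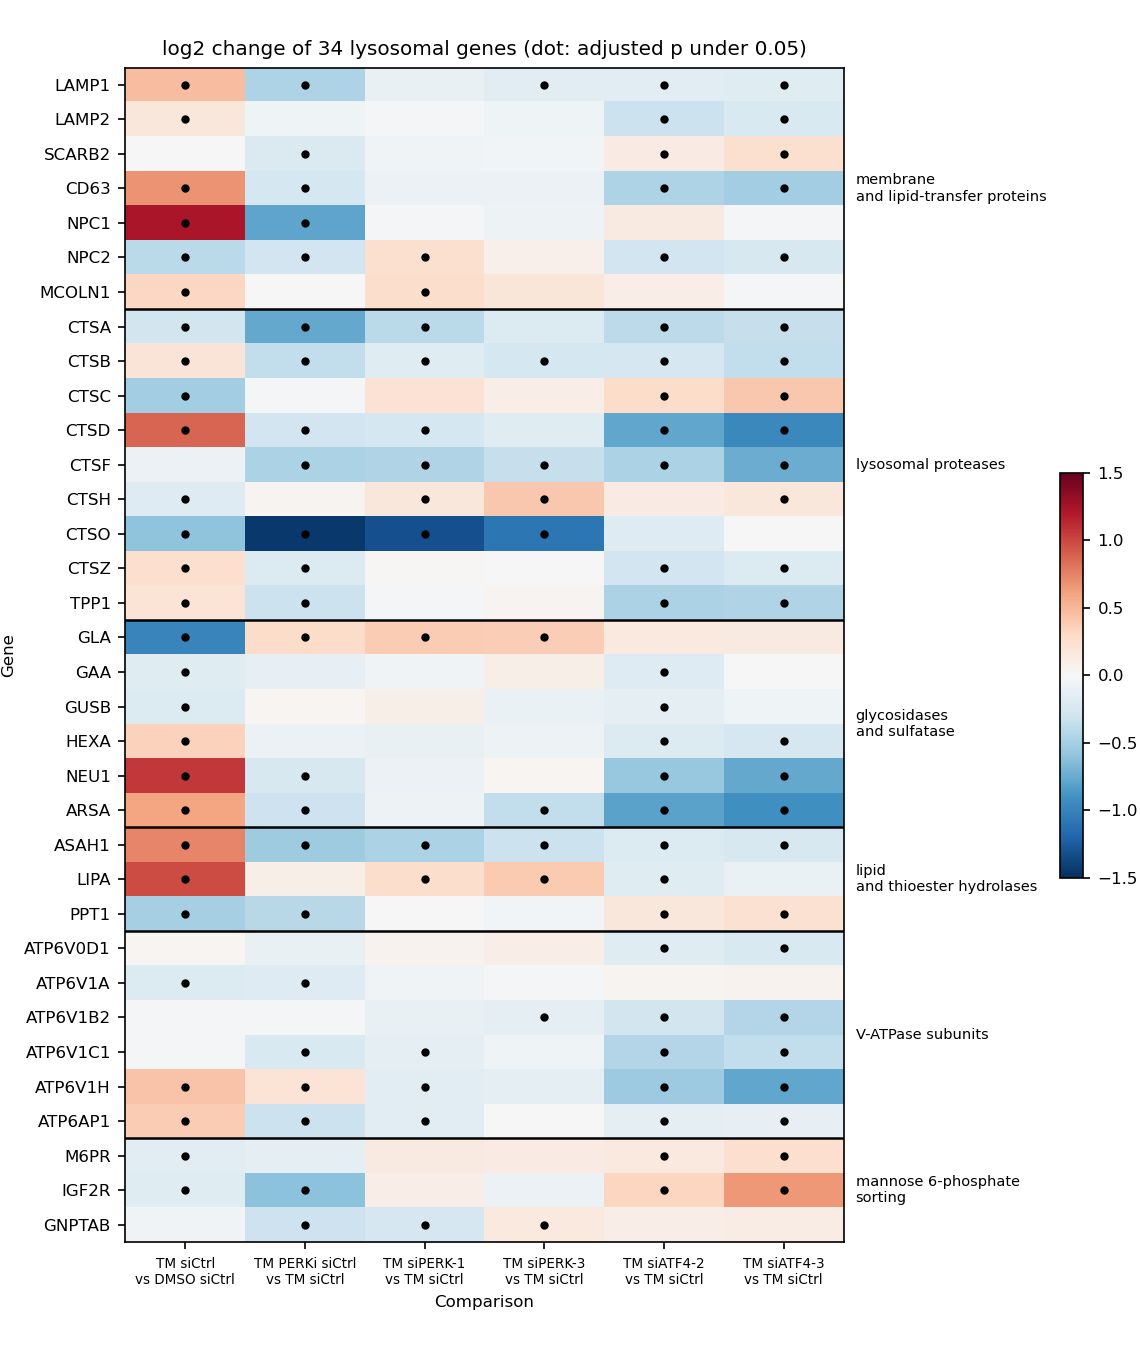
log2 changes of the 34 lysosomal genes (rows, grouped by role) in the 6 comparisons against a control group (columns), red for higher and blue for lower, with a dot where the adjusted p was under 0.05. The tunicamycin column holds 16 rises and 12 falls, and the inhibitor column 2 rises and 21 falls.

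With the PERK inhibitor during tunicamycin, lysosomal transcripts mostly fell. Relative to TM siCtrl, 21 of the 34 genes fell in TM PERKi siCtrl and 2 rose, against 17.5% of all genes tested that fell and 18.2% that rose. The median log2 change was -0.23 over the 34 genes and -0.00 over all genes tested. Falls were found among the membrane proteins (5 of 7), the proteases (7 of 9), the glycosidases and sulfatase (2 of 6, with 1 higher), the lipid and thioester hydrolases (2 of 3), the V-ATPase (3 of 6) and the sorting genes (2 of 3). The largest were CTSO (-1.45 ± 0.16), NPC1 (-0.79 ± 0.11), CTSA (-0.76 ± 0.08), IGF2R (-0.62 ± 0.05) and ASAH1 (-0.53 ± 0.05).

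CTSO had 3.11, 2.29, 3.81 and 3.74 CPM in TM PERKi siCtrl, so that every value was below those of TM siCtrl given above (adjusted p = 3.4e-09). These CTSO levels rest on 27 to 56 counts per library. NPC1 had 114.6, 102.7, 103.0 and 94.95 CPM in TM PERKi siCtrl, below all 4 TM siCtrl values (adjusted p = 8.3e-06) and above all 4 DMSO siCtrl values. CTSA had 14.3, 16.7, 15.5 and 15.4 CPM in TM PERKi siCtrl, the lowest mean of the 7 groups (adjusted p against TM siCtrl 1.22e-09). IGF2R had 249.1, 253.6, 266.4 and 285.1 CPM in TM PERKi siCtrl, against 387.2, 413.4, 422.1 and 394.2 CPM in TM siCtrl. The IGF2R groups were far apart (adjusted p = 5.69e-12), and DMSO siCtrl had 411.6 to 498.7 CPM. ASAH1 had 256.2, 250.3, 228.8 and 236.8 CPM in TM PERKi siCtrl, all below its TM siCtrl values (adjusted p = 2.82e-11).

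Other members fell less with the inhibitor. LAMP1 averaged 105.7 ± 3.30 CPM in TM PERKi siCtrl, against 146.3 ± 9.33 CPM in TM siCtrl and 106.4 ± 2.56 CPM in DMSO siCtrl. CTSF, a cysteine cathepsin, fell by 0.48 ± 0.08 on the log2 scale, PPT1 by 0.41 ± 0.05 and CTSB by 0.37 ± 0.05. CTSD had 256.4 to 284.6 CPM in TM PERKi siCtrl and NEU1 59.4 to 64.4 CPM, all below TM siCtrl and above DMSO siCtrl. The hydrolases CTSD (-0.29 ± 0.07), NEU1 (-0.24 ± 0.06), ARSA (-0.31 ± 0.08) and TPP1 (-0.32 ± 0.06) fell as well. GLA and ATP6V1H were the 2 genes called higher. ATP6V1H had 77.3, 78.6, 79.2 and 68.1 CPM in TM PERKi siCtrl, partly overlapping its TM siCtrl values (0.20 ± 0.05, adjusted p = 0.00277). GLA (0.27 ± 0.09) was not called without TM siCtrl replicate 4 (adjusted p = 0.104), without TM PERKi siCtrl replicate 1 (0.051) or without all libraries numbered 4 (0.163). LIPA, which rose with tunicamycin, had 165.4 ± 10.6 CPM in TM PERKi siCtrl and 155.9 ± 12.0 CPM in TM siCtrl and was not called.

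**Figure D3:**
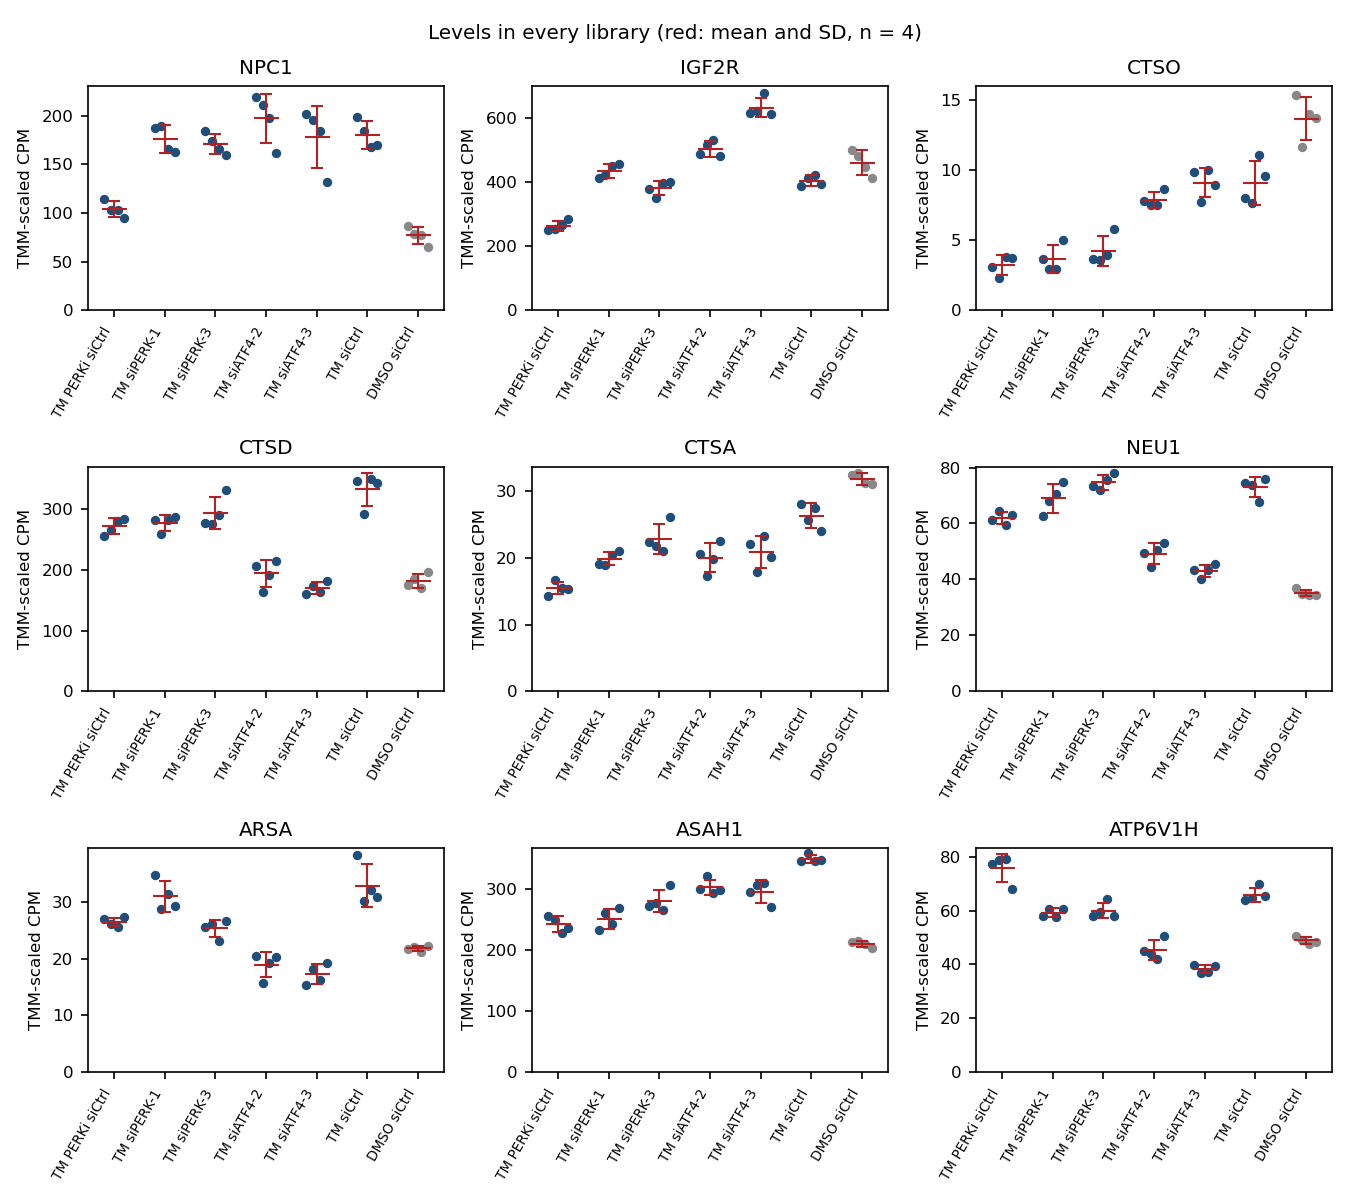
TMM-scaled CPM of 9 lysosomal genes in every library of the 7 groups, with the mean and SD in red (n = 4). NPC1 is lower in TM PERKi siCtrl (94.95 to 114.6 CPM) than in TM siCtrl (168.2 to 198.1 CPM). CTSO is lower in the inhibitor and PERK siRNA groups than in both controls. CTSD, NEU1, ARSA and ATP6V1H are lower in both ATF4 siRNA groups than in TM siCtrl.

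The PERK siRNAs moved fewer lysosomal transcripts. With siPERK-1, 5 of the 34 genes rose and 10 fell relative to TM siCtrl, against 13.1% of all genes tested that rose and 13.3% that fell. With siPERK-3, 4 rose and 7 fell, against 13.1% and 13.7% of all genes tested. The median log2 change over the 34 genes was -0.05 with either siRNA, and the median over all genes tested was 0.00 in both comparisons. Both comparisons share the TM siCtrl libraries.

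CTSO fell most with each siRNA. It had 3.63, 2.94, 2.91 and 5.02 CPM in TM siPERK-1 and 3.64, 3.58, 3.89 and 5.80 CPM in TM siPERK-3, all below the lowest TM siCtrl value of 7.61 CPM. The log2 change was -1.32 ± 0.16 for siPERK-1 (adjusted p = 3.05e-08) and -1.08 ± 0.16 for siPERK-3 (adjusted p = 1.38e-06). ASAH1 had 233.7, 261.9, 242.5 and 268.8 CPM in TM siPERK-1 and 272.7, 278.0, 266.5 and 306.2 CPM in TM siPERK-3, also below every TM siCtrl library. Its log2 change was -0.48 ± 0.05 for siPERK-1 and -0.32 ± 0.05 for siPERK-3. CTSF fell by 0.46 ± 0.08 with siPERK-1 and by 0.35 ± 0.08 with siPERK-3, and CTSB by 0.18 ± 0.05 and 0.26 ± 0.05. GLA rose by 0.38 ± 0.09 with siPERK-1 and by 0.37 ± 0.09 with siPERK-3. CTSH had the largest rise of the 34 genes with siPERK-3 (0.40 ± 0.06, adjusted p = 2.52e-06), to 142.6 ± 8.80 CPM in TM siPERK-3, against 108.0 ± 6.78 CPM in TM siCtrl. Its change with siPERK-1 was 0.16 ± 0.06 (adjusted p = 0.0398), a call lost without TM siCtrl replicate 1, 2 or 3 or TM siPERK-1 replicate 1, 3 or 4 (adjusted p 0.061 to 0.172).

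Apart from LIPA, the other members differed in their calls between the PERK siRNAs or were called with neither. GNPTAB fell by 0.25 ± 0.05 with siPERK-1. With siPERK-3 it was called higher (0.15 ± 0.05), a call lost without TM siCtrl replicate 1, 2 or 3 or TM siPERK-3 replicate 1, 2 or 4 (adjusted p 0.065 to 0.080). CTSA had 19.1, 19.0, 20.4 and 21.0 CPM in TM siPERK-1, all below the TM siCtrl libraries (-0.41 ± 0.08, adjusted p = 0.000141). It had 22.4, 21.7, 21.0 and 26.1 CPM in TM siPERK-3, which overlapped TM siCtrl and was not called (-0.21 ± 0.08, adjusted p = 0.0511). It was called without TM siCtrl replicate 4 (adjusted p = 0.0252) or without TM siPERK-3 replicate 4 (0.0132). Set directly against each other, the siRNAs gave a CTSA difference of -0.20 ± 0.08 that was not called (adjusted p = 0.186). NPC2 rose by 0.25 ± 0.07 with siPERK-1, a call lost without TM siCtrl replicate 3 (adjusted p = 0.060). LIPA was called higher with each siRNA. It rose by 0.39 ± 0.07 with siPERK-3, and with siPERK-1 its change was 0.26 ± 0.07, a call lost when replicate 4 of TM siPERK-1 was left out (adjusted p = 0.057). ATP6AP1 (-0.16 ± 0.05 with siPERK-1) lost its call when replicate 1 of TM siPERK-1 was left out (adjusted p = 0.062). NPC1 had 162.3 to 188.9 CPM in TM siPERK-1 and 159.1 to 183.7 CPM in TM siPERK-3, and it was not called with either. The 95% intervals of its log2 change ran from -0.25 to 0.19 for siPERK-1 and from -0.30 to 0.14 for siPERK-3. NEU1, IGF2R and SCARB2 were also not called with either PERK siRNA.

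The 2 PERK siRNAs were compared directly. Of the 34 genes, 6 differed between TM siPERK-1 and TM siPERK-3, against 4.73% of all genes tested. GNPTAB was lower with siPERK-1, at 70.9 ± 5.76 CPM in TM siPERK-1 and 93.6 ± 2.81 CPM in TM siPERK-3 (log2 difference -0.40 ± 0.05, adjusted p = 1.59e-06). CTSH (-0.24 ± 0.06) and ATP6AP1 (-0.16 ± 0.05) were the others called lower with siPERK-1. ARSA (0.29 ± 0.08), GUSB (0.20 ± 0.05) and IGF2R (0.19 ± 0.05) were called higher. The GNPTAB call held without any single library. The CTSH call was lost without replicate 2 of TM siPERK-1 or replicate 4 of TM siPERK-3 (adjusted p 0.078 to 0.081). The ARSA call was lost without replicate 1 or 3 of either group (0.062 to 0.147), and the IGF2R call without replicate 3 or 4 of TM siPERK-1 or replicate 1 or 2 of TM siPERK-3 (0.089 to 0.169). The GUSB call was lost without replicate 1 or 3 of TM siPERK-1 or replicate 1, 2 or 3 of TM siPERK-3 (0.053 to 0.149). The ATP6AP1 call was lost without replicate 1, 2 or 3 of TM siPERK-1 or replicate 2, 3 or 4 of TM siPERK-3 (0.055 to 0.260). The count itself was 2 or 3 genes without TM siPERK-1 replicate 1 or 3 or without TM siPERK-3 replicate 1 or 2.

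ATF4 siRNAs lowered most lysosomal hydrolases and pump subunits and raised the sorting receptor IGF2R. The calls of M6PR and SCARB2 as higher were less firm with siATF4-2, as given below. With siATF4-2, 22 of the 34 genes fell and 5 rose relative to TM siCtrl, against 27.2% of all genes tested that fell and 28.4% that rose. With siATF4-3, 19 fell and 6 rose, against 30.7% and 31.2% of all genes tested. The median log2 change over the 34 genes was -0.20 with either siRNA, and over all genes tested it was -0.00. These comparisons too share the TM siCtrl libraries.

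The largest falls were in CTSD, ARSA, NEU1 and ATP6V1H. CTSD had 207.0, 163.7, 191.8 and 215.0 CPM in TM siATF4-2 and 159.9, 173.8, 164.3 and 181.7 CPM in TM siATF4-3, against 292.6 to 349.2 CPM in TM siCtrl. The log2 change was -0.78 ± 0.07 for siATF4-2 (adjusted p = 7.23e-11) and -0.97 ± 0.07 for siATF4-3 (adjusted p = 3.17e-13), and no library overlapped TM siCtrl. ARSA had 20.5, 15.7, 19.3 and 20.3 CPM in TM siATF4-2 and 15.4, 18.3, 16.2 and 19.3 CPM in TM siATF4-3, all below both control groups. NEU1 had 49.4, 44.3, 50.4 and 52.9 CPM in TM siATF4-2 and 43.2, 40.03, 43.2 and 45.6 CPM in TM siATF4-3. These NEU1 values lay between the 2 control groups without touching either. ATP6V1H had 44.9, 43.8, 41.9 and 50.5 CPM in TM siATF4-2 and 39.6, 36.7, 37.1 and 39.5 CPM in TM siATF4-3. All were below the 4 TM siCtrl libraries, and the log2 changes were -0.54 ± 0.06 and -0.78 ± 0.06.

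Of the 6 V-ATPase subunits, 5 fell with each ATF4 siRNA. ATP6V1B2, a nucleotide-binding subunit of the V1 sector, fell by 0.27 ± 0.05 with siATF4-2 and by 0.44 ± 0.05 with siATF4-3. ATP6V1C1, a V1 stalk subunit, fell by 0.44 ± 0.06 and 0.37 ± 0.06. ATP6V0D1, of the membrane V0 sector, fell by 0.23 ± 0.06 with siATF4-3. Its fall with siATF4-2 (-0.18 ± 0.06) was not called without TM siATF4-2 replicate 2 (adjusted p = 0.066). ATP6AP1 fell by 0.15 ± 0.05 with siATF4-2, and its call with siATF4-3 (-0.12 ± 0.05) was lost without TM siCtrl replicate 3 or TM siATF4-3 replicate 1 or 3 (adjusted p 0.057 to 0.065). The catalytic ATP6V1A was not called with either (0.04 ± 0.05 and 0.06 ± 0.05).

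Falls also covered CD63 (-0.46 ± 0.05 with siATF4-2 and -0.53 ± 0.05 with siATF4-3), TPP1 (-0.47 ± 0.06 and -0.45 ± 0.06), CTSF (-0.47 ± 0.08 and -0.74 ± 0.08) and LAMP2 (-0.32 ± 0.05 and -0.23 ± 0.05). GAA, GUSB and LIPA were called lower with siATF4-2 (edgeR adjusted p 0.0382, 0.0239 and 0.0446) but not with siATF4-3. Each of these calls was lost when any of several single libraries was left out. CTSA had 20.6, 17.2, 19.8 and 22.5 CPM in TM siATF4-2 and 22.1, 17.9, 23.3 and 20.1 CPM in TM siATF4-3, all below TM siCtrl. ASAH1 had 299.9, 321.3, 294.6 and 298.1 CPM in TM siATF4-2 and 296.0, 307.3, 310.9 and 270.3 CPM in TM siATF4-3. These values were below TM siCtrl but well above DMSO siCtrl. CTSO, the gene lowered most by the inhibitor and the PERK siRNAs, had 7.78, 7.46, 7.46 and 8.65 CPM in TM siATF4-2 and 9.82, 7.68, 9.96 and 8.90 CPM in TM siATF4-3. It overlapped TM siCtrl in both and was not called (adjusted p = 0.234 and 0.962). NPC1 had 161.7 to 218.9 CPM in TM siATF4-2 and 131.5 to 202.0 CPM in TM siATF4-3. It was not called with either (adjusted p = 0.330 and 0.919). The lowest NPC1 value of each of these groups was that of replicate 4, and without all libraries numbered 4 NPC1 was called higher with siATF4-2 (log2 change 0.18, adjusted p = 0.0123). NPC1 was also called higher with siATF4-2 in a fit with a term for the replicate number (replicate block). In the main fit, GLA and MCOLN1 too were not called with either ATF4 siRNA.

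The sorting receptors IGF2R, M6PR and SCARB2 went the other way. IGF2R had 486.8, 515.9, 532.5 and 480.5 CPM in TM siATF4-2 and 615.4, 622.6, 678.0 and 613.3 CPM in TM siATF4-3, against 387.2 to 422.1 CPM in TM siCtrl. The log2 change was 0.32 ± 0.05 for siATF4-2 (adjusted p = 2.91e-06) and 0.65 ± 0.05 for siATF4-3 (adjusted p = 1.32e-13), with no overlap. M6PR rose by 0.26 ± 0.06 with siATF4-3 and SCARB2 by 0.25 ± 0.05. With siATF4-2 their changes were 0.15 ± 0.06 and 0.12 ± 0.05. The M6PR call with siATF4-2 was lost without TM siCtrl replicate 3 or TM siATF4-2 replicate 2 or 3 (adjusted p 0.054 to 0.117). The SCARB2 call with siATF4-2 was lost without TM siCtrl replicate 3 or 4 or TM siATF4-2 replicate 2 (adjusted p 0.088 to 0.211), and without all libraries numbered 4 (0.0657). Both calls were also lost under upper-quartile scaling (0.0817 for M6PR and 0.141 for SCARB2) and in a fit of only the groups compared (0.0580 and 0.108). PPT1 rose by 0.17 ± 0.05 with siATF4-2 and by 0.22 ± 0.05 with siATF4-3, and CTSC by 0.28 ± 0.09 and 0.40 ± 0.09. The CTSC call with siATF4-2 was lost without all libraries numbered 4 (adjusted p = 0.099).

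Between the 2 ATF4 siRNAs, 5 of the 34 genes differed, against 14.7% of all genes tested, so the count was near the share over all genes. The count was 2 in a fit of only the groups compared and 10 with the replicate block. IGF2R was lower with siATF4-2 (log2 difference -0.33 ± 0.05, adjusted p = 2.31e-05), at 503.9 ± 24.5 CPM in TM siATF4-2 and 632.3 ± 30.7 CPM in TM siATF4-3. CTSF (0.27 ± 0.09), ATP6V1H (0.24 ± 0.06), NEU1 (0.20 ± 0.06) and ATP6V1B2 (0.17 ± 0.05) were higher with siATF4-2. ATF4 itself was higher in TM siATF4-2, at 237.3 ± 82.4 CPM, than in TM siATF4-3, at 114.1 ± 19.0 CPM. Its part in these differences was not tested. The CTSF call was lost without TM siATF4-2 replicate 4 or TM siATF4-3 replicate 1 or 3 (adjusted p 0.057 to 0.114), and the NEU1 call without TM siATF4-2 replicate 3 or 4 or TM siATF4-3 replicate 2 (0.052 to 0.103). In the fit of only the groups compared, the calls of CTSF (0.0620), NEU1 (0.0742) and ATP6V1B2 (0.0564) were lost.

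The inhibitor and the PERK siRNAs, which act on the same kinase, were set against each other directly, without TM siCtrl. Relative to the mean of TM siPERK-1 and TM siPERK-3, 21 of the 34 genes were lower in TM PERKi siCtrl and 2 were higher, 23 in all, against 51.9% of all genes tested that differed. NPC1 was lower with the inhibitor (log2 difference -0.74 ± 0.10, adjusted p = 2.11e-06), as were IGF2R (-0.63 ± 0.05), CTSA (-0.46 ± 0.08), NPC2 (-0.44 ± 0.07) and PPT1 (-0.39 ± 0.05). ATP6V1H was higher (0.35 ± 0.05, adjusted p = 6.35e-08). The other gene called higher, ATP6V1B2 (0.10 ± 0.04), lost its call without replicate 1, 2 or 3 of TM PERKi siCtrl, replicate 1 or 2 of TM siPERK-1 or replicate 2 of TM siPERK-3 (adjusted p 0.052 to 0.1504). CTSO did not pass the test (-0.25 ± 0.17, adjusted p = 0.214), and the 95% interval of its difference ran from -0.58 to 0.08. EIF2AK3 itself had 125.1 ± 4.25 CPM in TM PERKi siCtrl, against 24.6 ± 3.996 CPM in TM siPERK-1 and 21.5 ± 2.14 CPM in TM siPERK-3.

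The ATF4 siRNAs were also set against the PERK siRNAs. Of the 34 genes, 20 were lower and 8 higher in the mean of the ATF4 siRNA groups than in the mean of the PERK siRNA groups, 28 in all, against 63.9% of all genes tested that differed. CTSD (-0.65 ± 0.05), NEU1 (-0.64 ± 0.04), ARSA (-0.63 ± 0.06), ATP6V1H (-0.52 ± 0.04) and TPP1 (-0.47 ± 0.04) were lower with the ATF4 siRNAs. CTSO was higher with them (1.10 ± 0.12, adjusted p = 7.8e-11), with 7.46 to 9.96 CPM in the ATF4 siRNA libraries and 2.91 to 5.80 CPM in the PERK siRNA libraries. IGF2R was higher by 0.47 ± 0.04 and SCARB2 by 0.23 ± 0.03. LAMP1, NPC1, CTSA, GAA, ATP6AP1 and M6PR were not called. For NPC1 (0.11 ± 0.08) the 95% interval ran from -0.04 to 0.27. It was called higher without TM siATF4-3 replicate 4 (adjusted p = 0.0191).

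**Figure D4:**
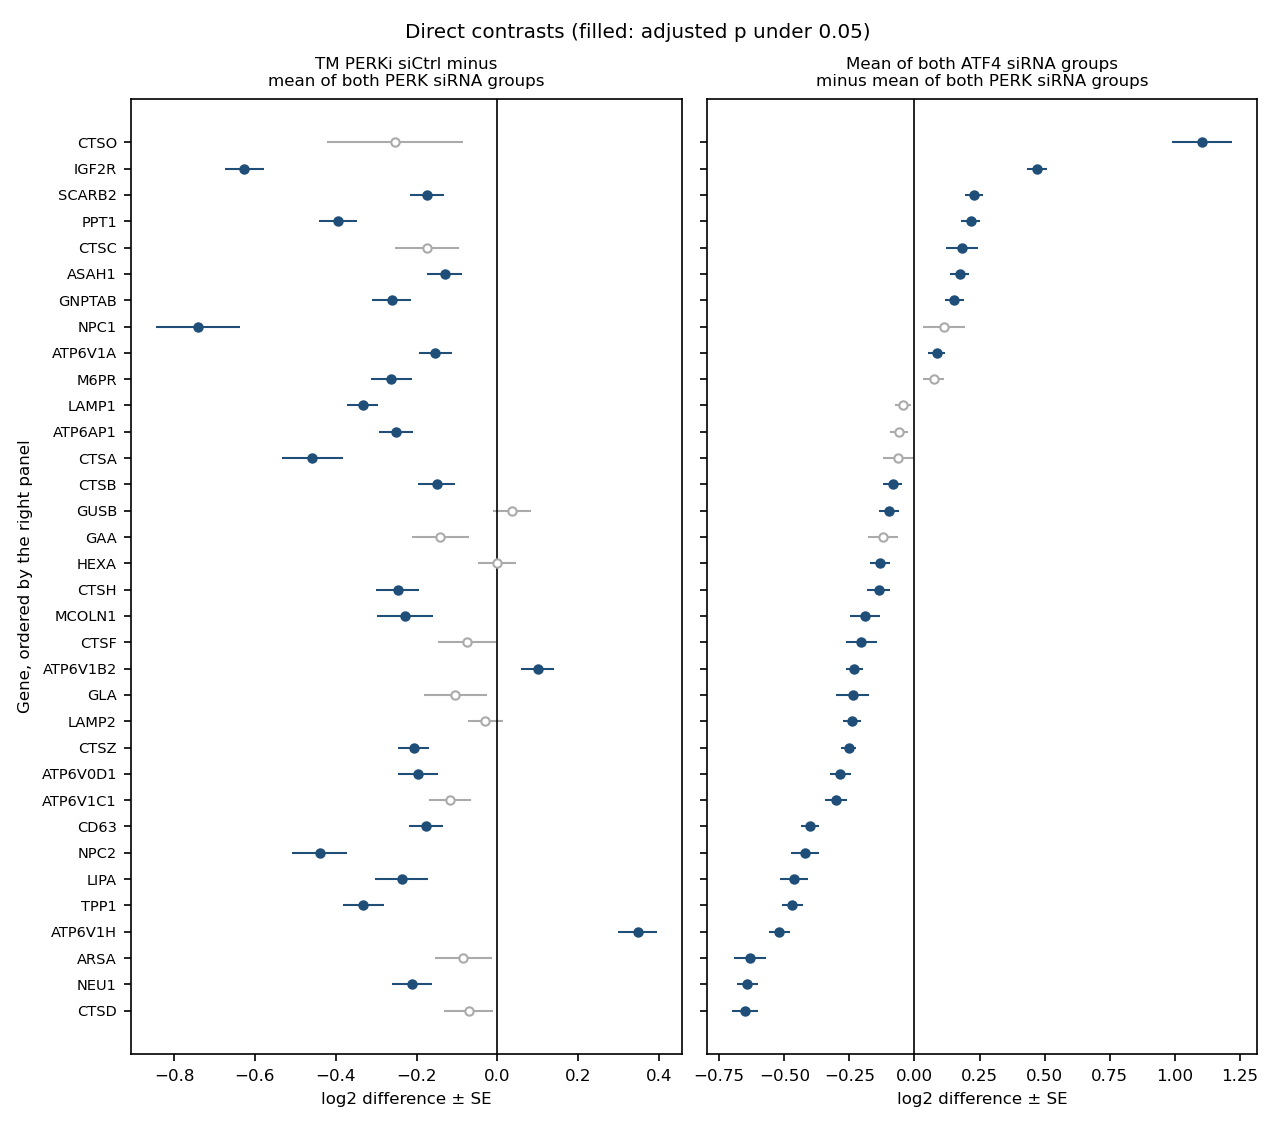
log2 differences with SE of the 34 lysosomal genes for TM PERKi siCtrl minus the mean of both PERK siRNA groups (left) and for the mean of both ATF4 siRNA groups minus the mean of both PERK siRNA groups (right), filled where the adjusted p was under 0.05. NPC1 (-0.74) is lowest on the left, and CTSO (1.10) stands highest and CTSD (-0.65) lowest on the right.

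Of the MiT/TFE factors, which act on CLEAR elements, TFE3 and TFEB moved in opposite directions with tunicamycin. TFE3 had 99.6 ± 5.63 CPM in TM siCtrl and 59.0 ± 3.22 CPM in DMSO siCtrl (log2 change 0.75 ± 0.05). TFEB had 3.91 ± 0.475 CPM in TM siCtrl and 7.55 ± 0.436 CPM in DMSO siCtrl (-0.94 ± 0.14). MITF was not called (0.24 ± 0.11). With the inhibitor TFE3 rose by 0.26 ± 0.05 and MITF by 0.46 ± 0.11. TFE3 fell by 0.36 ± 0.05 with siATF4-2 and by 0.54 ± 0.05 with siATF4-3, and TFEB rose by 0.54 ± 0.15 with siATF4-3. Of the 6 genes with a CLEAR core, LAMP1 and MCOLN1 rose with tunicamycin, and CTSA, GAA and IGF2R fell. ATP6V0D1 was not called (0.03 ± 0.05). The fall of GAA was the one lost without single libraries, above. Over all 15 tested genes of MiT/TFE factors and their Rag GTPase and folliculin control, 4 rose and 6 fell with tunicamycin. In the same list 3 rose and 4 fell with the inhibitor, 1 rose and 3 fell with siPERK-1, and 2 rose and 4 fell with siPERK-3. With siATF4-2, 0 rose and 7 fell, and with siATF4-3, 2 rose and 8 fell. The shares over all genes tested were 34.3% higher and 34.7% lower with tunicamycin, and 18.2% and 17.5% with the inhibitor. They were 13.1% to 13.7% in each direction with the PERK siRNAs. With siATF4-2 they were 28.4% higher and 27.2% lower, and with siATF4-3 31.2% and 30.7%. Several counts of this list lay near those shares, such as those with tunicamycin and the rises with the inhibitor and siPERK-3.

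Other lysosomal genes, from lists that exclude the 34, were counted in the same way. Of 28 other hydrolases and activators tested, 16 rose and 4 fell with tunicamycin, against 34.3% of all genes tested that rose and 34.7% that fell. Among them were MANBA, beta-mannosidase (1.43 ± 0.12), and ACP2, an acid phosphatase (1.17 ± 0.06). Of 15 other membrane proteins, 12 rose and 0 fell. LAMP3, a LAMP family member, had 14.7 ± 0.385 CPM in TM siCtrl and 0.448 ± 0.160 CPM in DMSO siCtrl (5.03 ± 0.25). Of 11 other V-ATPase subunits, 5 rose and 3 fell, led by ATP6V0A2, a V0 subunit (1.26 ± 0.06). Of 13 other sorting and retromer genes, 4 rose and 5 fell, and SORL1, a sorting receptor, rose most (0.83 ± 0.09). The counts for the V-ATPase and sorting lists were near the shares over all genes tested.

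With the inhibitor, 11 of the 28 other hydrolases fell and 0 rose relative to TM siCtrl, against 17.5% of all genes tested that fell and 18.2% that rose. GNPTG, the gamma subunit of the phosphotransferase whose other subunits come from GNPTAB, fell by 1.04 ± 0.09 with the inhibitor. It fell by 0.83 ± 0.09 with siPERK-1 and by 0.66 ± 0.09 with siPERK-3. Of the 28 other hydrolases, 11 fell and 2 rose with siPERK-1, and 7 fell and 3 rose with siPERK-3, where 13.1% to 13.7% of all genes tested moved in each direction. Of the 15 other membrane proteins, 5 fell and 1 rose with the inhibitor, 3 fell and 3 rose with siPERK-1, and 2 fell and 3 rose with siPERK-3. Of the 11 other V-ATPase subunits, 5 fell and 0 rose with the inhibitor, 1 fell and 2 rose with siPERK-1, and 2 fell and 0 rose with siPERK-3. Of the 13 other sorting genes, 4 fell and 1 rose with the inhibitor, and 5 fell with siPERK-1 and 4 with siPERK-3, with 0 rising. Several of these counts, such as those of the membrane proteins with the PERK siRNAs, were near the shares over all genes tested.

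With the ATF4 siRNAs, 20 of the 28 other hydrolases fell with siATF4-2, where 2 rose, and 20 fell with siATF4-3, where 3 rose. Of all genes tested, 27.2% fell and 28.4% rose with siATF4-2, and 30.7% fell and 31.2% rose with siATF4-3. DNASE2, an acid DNase, fell by 1.52 ± 0.08 with siATF4-2 and by 2.04 ± 0.08 with siATF4-3. AGA, which cleaves asparagine-linked sugars, fell by 0.90 ± 0.08 and 1.00 ± 0.09. Of the 15 other membrane proteins, 7 fell with siATF4-2 and 11 with siATF4-3, and 0 rose with either. LAMP3 fell by 3.95 ± 0.24 and 4.55 ± 0.26. Of the 11 other V-ATPase subunits, 6 fell with each siRNA and 1 rose with siATF4-3, and ATP6AP2, an accessory subunit, fell by 0.51 ± 0.05 and 0.72 ± 0.05. Of the 13 other sorting genes, 5 fell with siATF4-2 and 6 with siATF4-3, and 1 rose with each. AP1S1, a subunit of the AP-1 sorting adaptor, fell by 0.77 ± 0.05 and 0.91 ± 0.05.

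On hg19, the genes given in every library lie at chr18:21111463-21166581 (NPC1), chr11:1773982-1785222 (CTSD), chr4:156845270-156875048 (CTSO), chr20:44519591-44527458 (CTSA), chr6:31826829-31830709 (NEU1), chr22:51061182-51066601 (ARSA) and chr6:160390131-160527583 (IGF2R). ASAH1 and ATP6V1H lie on chromosome 8. Values are counts over the annotated exons of each gene. Some counts carry a limit of annotation. By the exon models in the count tables (hg19), NPC1, CTSA, HEXA and M6PR overlap a gene on the other strand and NPC2 a microRNA gene on its own strand. Of the other genes named, ACP2 and GNPTG overlap another gene. NEU1 was counted over its chromosome 6 copy and 7 haplotype copies, and its level per length uses the chromosome 6 copy alone. GUSB has many pseudogenes, and how the counting handled reads shared with such copies is not given in the sources used here.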

How the data were processed

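RNA-seq was made from total RNA of LNCaP cells with a strand-specific kit, per the labels' protocols. The deposited values are raw counts of reads per gene in 6 tables of 25370 lines, per the file headers. Per the submitters' processing notes, hg19 was the build and the tools included DESeq2 1.10.1, featureCounts 1.5.0-p1 and TopHat2 2.1.0. Their settings, strand handling included, are not given in these sources. The deposited exon length of each gene was used for levels per kilobase.

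The TM siCtrl columns recurred in 20 places with 0 differing values and were used once. One unnamed line, with 0 counts, was dropped, and 0 value columns went unused. Counts of all 28 libraries were scaled by TMM (factors 0.937 to 1.10) and fitted together in edgeR 4.0.16 under R 4.3.3, with a group-means model and a robust quasi-likelihood F-test (two-sided). The filter (filterByExpr, minimum count 10, minimum total 15) left 14314 genes, including all 34 members. P-values were adjusted by Benjamini-Hochberg over these genes for each comparison (10 in all); genes under 0.05 are termed called. SEs were derived from the log2 change and the F statistic, and 95% intervals use a normal quantile. The script was tested on simulated data. Alternatives were RLE and upper-quartile scaling, DESeq2 1.42.0, limma-voom (limma 3.58.1), no filter, a fit of only the groups compared, the replicate block and leaving out each library.

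The 34 genes and the other lists were chosen with earlier results of these data known. A gene was given in every library where its absolute log2 change was at least 1 with tunicamycin or 0.5 with the inhibitor or both siRNAs of a target, with no overlap between groups. From each other list at most 4 called genes with the largest changes were named per comparison. Some genes that this rule picks are not reported here. Protein sequences were not used here. The promoter windows of RefSeq are on GRCh38.p14 and were matched by symbol, and no coordinates were converted.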

Additional observations from a re-analysis of the deposited data

Results flagged for a closer look

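In 12 of 238 sets of 4 libraries, 1 library of a gene lay far from the other 3 for their range (Dixon's test at its 95% critical value), and chance flags about 1 in 20. In the inhibitor group this was GNPTAB in replicate 3 (62.4 CPM, the others 69.4 to 70.2). In the PERK siRNA groups it concerned siPERK-3 alone. ATP6V1B2 was low in replicate 2 (80.0 CPM, the others 83.3 to 83.4), while CTSO (5.80 CPM, the others 3.58 to 3.89) and LAMP2 (225.4 CPM, the others 209.8 to 210.7) were high in replicate 4. In the ATF4 siRNA groups CTSB was high in siATF4-2 replicate 1 (128.3 CPM, the others 117.7 to 119.0). With siATF4-3, CTSH was high in replicate 4 (125.4 CPM, the others 119.4 to 119.9) and IGF2R in replicate 3 (678.0 CPM, the others 613.3 to 622.6). In TM siCtrl, CTSD was low in replicate 2 (292.6 CPM, the others 342.6 to 349.2), ASAH1 was high in replicate 2 (359.9 CPM, the others 346.4 to 347.7) and GNPTAB was high in replicate 4 (86.7 CPM, the others 83.4 to 83.8). In DMSO siCtrl, CTSH was high in replicate 4 (143.7 CPM, the others 115.4 to 117.5) and NEU1 in replicate 1 (36.8 CPM, the others 34.5 to 34.6).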

How the results depend on the processing

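Of 5848 changes of single lysosomal genes recomputed under an alternative setting, 5514 kept their direction and their side of the threshold, 147 lost a call, 84 gained one, 103 uncalled ones changed sign and 0 called ones changed sign. Of 6 genes called between the PERK siRNAs, 2 to 3 were called without TM siPERK-1 replicate 1 or 3 or TM siPERK-3 replicate 1 or 2. Over all genes this comparison called 677, against 392 to 451 without TM siPERK-1 replicate 1 or 3 or TM siPERK-3 replicate 1 and 1195 with the replicate block. Same-numbered libraries correlated by 0.03 to 0.30 in their deviations from the group means. In no comparison did every pair exceed 0.1, the limit set for taking the numbers as pairs, and the main fit had no replicate term. That limit was a choice, and the labels do not say whether a number marks a shared experiment. All 8 libraries correlated best with their own number in 4 comparisons. It was 7 of 8 for siPERK-3 and for siATF4-3 against TM siCtrl, 5 of 8 for tunicamycin and 4 of 8 between the ATF4 siRNAs. Between the ATF4 siRNAs 10 genes were called with the replicate block and 2 in a fit of only the groups compared, against 5. The cause was not tested. Depth limits CTSO most, with 27 to 279 counts per library.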
